A study of Mus musculus with 6 samples.

Results

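The 10 genes described here are markers and regulators of hematopoietic stem and progenitor cells, and they were measured by RNA-seq in acute myeloid leukemia (AML) blasts of 6 mice. They comprise 7 genes of surface proteins (*Cd34*, *Prom1*, *Adgrg1*, *Procr*, *Esam*, *Slamf1* and *Cd48*) and 3 genes of transcription factors (*Mecom*, *Erg* and *Hlf*), and were taken by symbol from the 53458 genes to which the transcripts belong. All 10 were among the 22170 genes with enough reads to be tested, a test that asked for a sum of 10 or more library-size-normalized counts over the mice. The study asked what loss of TET2, an enzyme that oxidizes the methyl group of methylated CpG sites, does in AML with mutant *Cebpa*. It compared 3 *Cebpa*-/p30 *Tet2*+/+ mice (mice 19, 23 and 24) with 3 *Cebpa*-/p30 *Tet2*-/- mice (mice 5, 7 and 8), labelled C57BL/6, with 1 library per mouse.

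Both genotypes lacked the full-length p42 form of C/EBPα. One *Cebpa* allele made only the shorter p30 form, and the other was a floxed allele deleted by Mx1-Cre. In *Tet2*-/- mice the same Cre deleted both floxed *Tet2* alleles. Mx1-Cre is switched on by interferon and is not restricted to blood cells, and here it was carried by the transplanted marrow. Marrow of individual donors (C57BL/6J) was given to lethally irradiated congenic recipients (C57BL/6J.SJL), Cre was induced with Poly(I)-Poly(C) after recovery, and marrow was frozen when the recipients became moribund. Blasts were later sorted from it as live donor cells (CD45.2+) without CD3, B220 and Ter119, a gate that excludes T, B and erythroid cells and does not select stem cells, progenitors or any stage of myeloid maturation. The labels do not name the donor of each mouse. Per the authors' reporting summary each donor had several recipients, so that mice of a genotype may share a donor. The age of the mice at sampling is not given in the sources used here. Median survival was shorter in *Tet2*-/- than in *Tet2*+/+ recipients per the authors, so that this age may differ between the genotypes.

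A hematopoietic stem cell gives rise to all blood lineages, and its progeny lose stem cell markers as they commit and mature. CD34, PROM1 (CD133) and ADGRG1 (GPR56) are found on stem and early progenitor cells, and CD34 and GPR56 are also used to mark the stem-like fraction of human AML. PROCR (EPCR), ESAM and SLAMF1 (CD150) mark the most immature stem cells of the mouse, whereas CD48, a relative of SLAMF1, is absent from these and present on most of their progeny. Of the factors, *Mecom* encodes EVI1 and related forms that maintain stem cells, *Erg* an ETS factor needed for stem cell maintenance, and *Hlf* a PAR bZIP factor of stem cells that is switched off on commitment.

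The starts of the annotated transcripts placed the reads of *Cd34* and *Cd48* at a single RefSeq start each, whereas *Adgrg1*, *Prom1* and *Erg* have several. Windows of 300 bases (250 before and 50 after the start, RefSeq, GRCm38.p6) are shown first for the start of *Cd34*, both starts of *Adgrg1* and of *Prom1*, and the start of *Erg* with most reads, because TET2 acts at CpG sites and because the starts of *Adgrg1* are compared between the genotypes further on. Capitals mark every CG dinucleotide, and each sequence is read 5′ to 3′ on the strand of its gene.
Cd34, + strand, chr1:194938571-194938870: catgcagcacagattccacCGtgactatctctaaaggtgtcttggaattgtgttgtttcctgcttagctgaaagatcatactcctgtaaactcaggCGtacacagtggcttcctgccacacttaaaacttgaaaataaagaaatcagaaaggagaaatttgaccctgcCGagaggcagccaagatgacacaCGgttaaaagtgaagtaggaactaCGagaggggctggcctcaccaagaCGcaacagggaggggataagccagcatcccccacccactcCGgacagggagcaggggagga
Adgrg1 upstream start, + strand, chr8:94976859-94977158: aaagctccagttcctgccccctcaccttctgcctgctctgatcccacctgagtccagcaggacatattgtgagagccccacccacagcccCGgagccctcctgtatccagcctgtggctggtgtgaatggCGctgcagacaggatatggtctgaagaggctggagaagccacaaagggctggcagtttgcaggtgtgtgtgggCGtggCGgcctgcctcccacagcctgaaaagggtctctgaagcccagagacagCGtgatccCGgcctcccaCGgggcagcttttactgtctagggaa
Adgrg1 downstream start, + strand, chr8:94984149-94984448: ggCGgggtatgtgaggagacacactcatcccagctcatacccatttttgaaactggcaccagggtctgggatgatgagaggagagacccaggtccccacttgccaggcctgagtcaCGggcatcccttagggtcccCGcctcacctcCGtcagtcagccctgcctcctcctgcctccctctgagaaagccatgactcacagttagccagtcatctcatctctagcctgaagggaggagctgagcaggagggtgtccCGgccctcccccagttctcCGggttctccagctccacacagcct
Prom1 upstream start, - strand, chr5:44101687-44101986: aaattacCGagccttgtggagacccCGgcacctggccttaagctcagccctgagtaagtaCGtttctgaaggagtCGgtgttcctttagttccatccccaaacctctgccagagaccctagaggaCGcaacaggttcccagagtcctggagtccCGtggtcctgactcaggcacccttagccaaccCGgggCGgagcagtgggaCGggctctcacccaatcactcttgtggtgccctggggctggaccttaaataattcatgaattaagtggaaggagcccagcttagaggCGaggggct
Prom1 downstream start, - strand, chr5:44094719-44095018: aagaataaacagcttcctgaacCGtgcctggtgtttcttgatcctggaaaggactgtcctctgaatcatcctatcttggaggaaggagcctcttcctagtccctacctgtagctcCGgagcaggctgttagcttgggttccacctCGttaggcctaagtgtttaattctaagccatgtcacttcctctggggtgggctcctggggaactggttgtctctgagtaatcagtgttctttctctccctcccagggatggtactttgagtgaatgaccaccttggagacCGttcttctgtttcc
Erg start with most reads, - strand, chr16:95459299-95459598: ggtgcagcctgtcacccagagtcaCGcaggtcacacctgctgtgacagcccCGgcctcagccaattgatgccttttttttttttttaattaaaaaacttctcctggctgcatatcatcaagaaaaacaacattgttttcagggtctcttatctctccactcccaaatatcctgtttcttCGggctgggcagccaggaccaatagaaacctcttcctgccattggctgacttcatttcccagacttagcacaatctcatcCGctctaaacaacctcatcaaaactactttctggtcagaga

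The *Cd34* window and that of the upstream *Adgrg1* start held 7 CG each, which is the median of the 32851 RefSeq promoter windows of the same length (quartiles 3 and 20). The downstream *Adgrg1* start had 6, the upstream *Prom1* start 10, the downstream *Prom1* start 4 and the *Erg* start 4. None of these windows therefore was rich in CG, whereas the window of *Hlf* (chr11:90390868-90391167, - strand), which had almost no reads, held 30, a number that 11.7% of windows reach. The letters GATAA, read on both strands as the core of a GATA factor site, occurred once in the *Cd34* window and once in the *Erg* window and were not present in those of *Adgrg1* and *Prom1*. They occurred in 25.4% of all windows. The letters GGAAG, on both strands as a core of ETS factor sites, occurred in 71.4% of all windows, once each in *Cd34*, *Erg* and the upstream *Prom1* window, 4 times in the downstream *Prom1* window and in neither *Adgrg1* window. These matches describe the letters only, and methylation of these windows was not analysed here.

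The 10 genes fell into a group of 5 that were well expressed and a group of 5 that were near silent. *Cd34*, *Prom1*, *Adgrg1*, *Cd48* and *Erg* each had over 100 estimated reads in all 6 mice, and *Slamf1*, *Procr*, *Esam*, *Hlf* and *Mecom* each had under 100 in all 6. Because a long transcript gives more reads than a short one, levels of different genes were compared in TPM (transcripts per 1000000, corrected for length). Summed over the transcripts of a gene, the mean TPM of the 6 mice was 77.8 for *Adgrg1*, 51.9 for *Cd34*, 41.6 for *Cd48*, 22.6 for *Prom1* and 15.1 for *Erg*. The ranges over the mice of each neighbouring pair in this order overlapped, from 25.7 to 134 TPM for *Adgrg1*, from 10.4 to 112 for *Cd34*, from 14.5 to 66.2 for *Cd48*, from 4.02 to 36.2 for *Prom1* and from 6.08 to 23.1 for *Erg*. The order also depended on short transcripts, since a few reads on a short fragment make a high TPM. When only transcripts with at least 80% of the longest coding length were summed, *Cd48* had a mean of 41.2 TPM and *Cd34* 35.3, whereas *Adgrg1* had 15.1, *Erg* 15.1 and *Prom1* 5.20. By either sum, *Cd48* and *Cd34* lay above *Erg* and *Prom1* in their means.

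**Figure D1:**
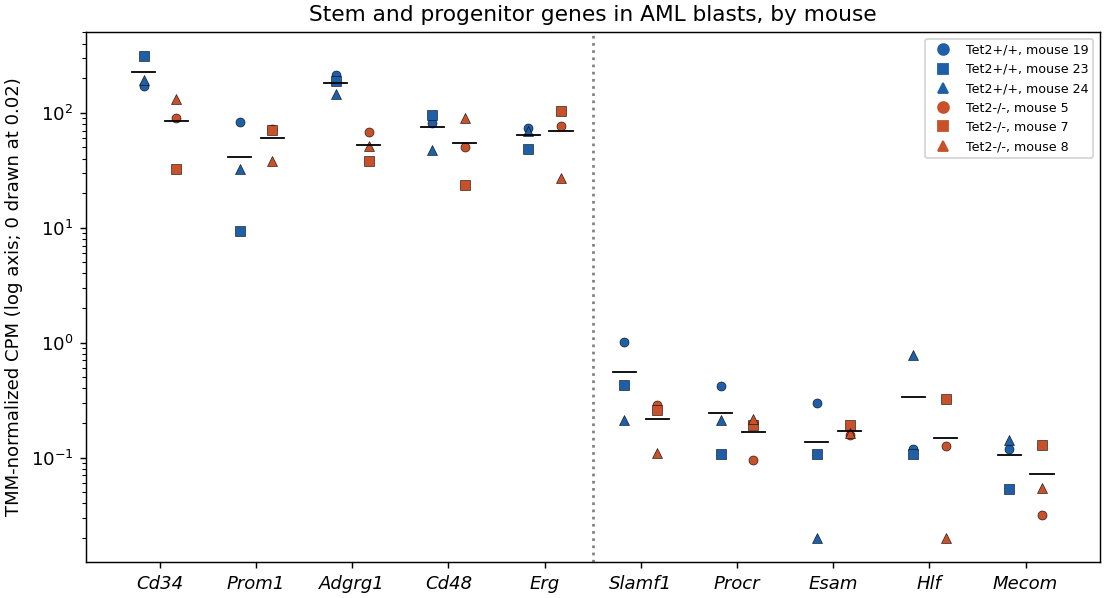
TMM-normalized counts per 1000000 reads (CPM, log axis) of the 10 genes in each mouse, with blue symbols for Tet2+/+, orange symbols for Tet2-/- and black lines for the mean of each genotype. The 5 genes left of the dotted line lay between 9.42 and 310 CPM, and the 5 right of it at or below 1.02 CPM.

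*Adgrg1* (ENSMUSG00000031785, chr8:94974751-95014217, + strand) showed the clearest separation of the genotypes among the 10 genes. It encodes an adhesion G protein-coupled receptor that binds collagen and other matrix proteins. In *Tet2*+/+ blasts it had 214, 190.4 and 146 CPM (TMM-normalized counts per 1000000 reads) in mice 19, 23 and 24. In *Tet2*-/- blasts it had 67.8, 38.2 and 51.8 CPM in mice 5, 7 and 8. The highest *Tet2*-/- mouse thus lay below the lowest *Tet2*+/+ mouse. The means were 183 ± 34.7 and 52.6 ± 14.8 CPM (SD, n = 3 each), a log2 fold change of -1.80 (SE 0.26, 95% interval -2.42 to -1.18) or 3.48-fold. Its p was 0.000216 with the quasi-likelihood test of edgeR, and 0.122 after Benjamini-Hochberg adjustment over all 22170 genes, so that it did not pass 0.05. DESeq2 on the same counts called it lower with an adjusted p of 3.96e-07, and DESeq2 on the length-scaled counts that the study's methods used gave 6.66e-06. Over all genes the latter called 1.73%. Without a filter on low counts edgeR also called it (adjusted p = 0.0260, log2 fold change -1.79). The tool and the filter thus both moved *Adgrg1* across the threshold. Leaving out any 1 mouse gave log2 fold changes from -2.03 to -1.61, with adjusted p between 0.195 and 0.318 from edgeR.

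Of all genes tested, 4.75% had a log2 fold change as low as that of *Adgrg1* or lower. An exact permutation test of the 6 values gave p = 0.1 (two-sided), which is the smallest that 3 against 3 mice allow. In bulk samples such as these, fewer cells that express a gene and less RNA of it per cell cannot be told apart.

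The reads of *Adgrg1* came mainly from transcripts that begin at the upstream start. These held 88.8%, 84.9% and 85.7% of the gene's reads in the *Tet2*+/+ mice 19, 23 and 24, and 81.1%, 72.6% and 80.4% in the *Tet2*-/- mice 5, 7 and 8. Transcripts from the downstream start, the start within the second *Adgrg1* window above, held 0.407%, 3.51% and 1.11% in *Tet2*+/+ mice and 5.19%, 10.4% and 4.85% in *Tet2*-/- mice. The genotypes did not overlap in either share (exact permutation test, two-sided p = 0.1 for both, the smallest possible). Expressed as levels, the transcripts from the upstream start took 190.1, 162 and 125 CPM in *Tet2*+/+ and 55.0, 27.7 and 41.7 CPM in *Tet2*-/- blasts, without overlap. Those from the downstream start took 0.871, 6.69 and 1.61 CPM against 3.52, 3.98 and 2.51 CPM, and these overlapped. The lower level of the gene in *Tet2*-/- blasts was therefore mostly that of transcripts from the upstream start, and those of the downstream start did not separate the genotypes. Transcripts that begin elsewhere were also lower without overlap, with 23.1, 22.0 and 19.2 CPM against 9.28, 6.48 and 7.63 CPM. Their share of the reads was 11.9% ± 1.23 in *Tet2*+/+ and 15.1% ± 1.68 in *Tet2*-/- blasts (SD, n = 3 each), again without overlap (exact permutation test, p = 0.1). The leading upstream transcript, Adgrg1-202, and the leading downstream one, Adgrg1-201, both encode 687 codons. Salmon divides reads that fit several transcripts between them, and these shares are therefore estimates.

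The leading transcript alone showed the same separation, since Adgrg1-202 was at 26.4, 25.3 and 19.6 TPM in *Tet2*+/+ and at 7.22, 3.60 and 5.89 TPM in *Tet2*-/- blasts. Its share of the gene's reads was 83.2% ± 1.81 and 73.7% ± 5.46 (SD, n = 3 each) without overlap (exact permutation test, p = 0.1). In shares of TPM, where the short retained-intron fragments weigh more, the difference (*Tet2*-/- minus *Tet2*+/+) was -4.72 points in place of -9.46 points, and the genotypes did not overlap either.

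**Figure D2:**
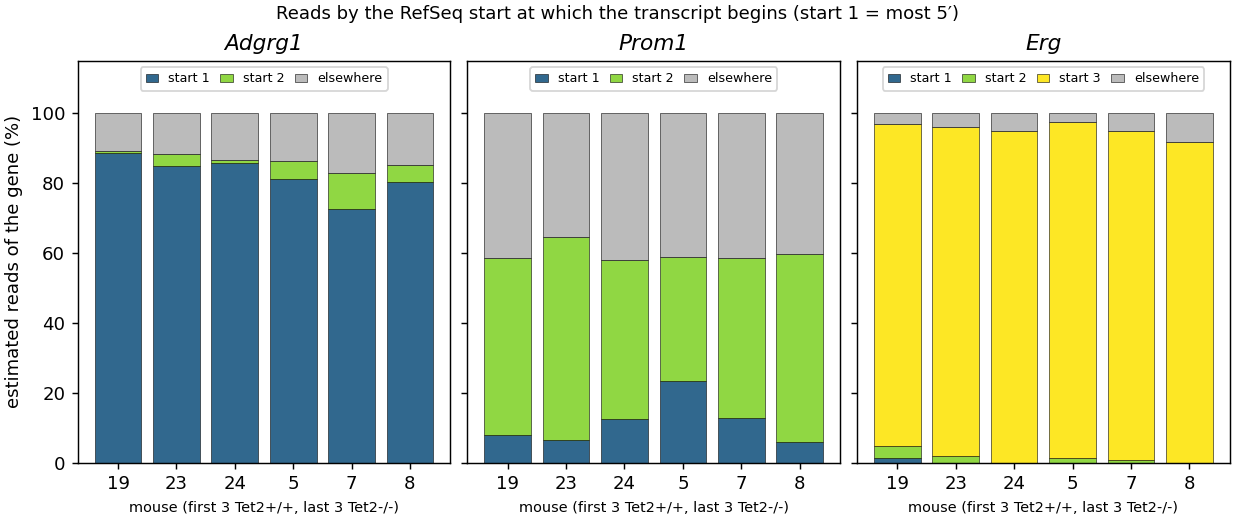
Share of the estimated reads of Adgrg1, Prom1 and Erg held by transcripts that begin within 200 bases of each RefSeq start (start 1 is the most upstream), for each mouse. For Adgrg1 start 1 held 84.9% to 88.8% in Tet2+/+ and 72.6% to 81.1% in Tet2-/- blasts, whereas for Prom1 and Erg the genotypes overlapped at every start.

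*Cd34* (ENSMUSG00000016494, chr1:194938819-194961279, + strand), which encodes a sialomucin of stem, progenitor and endothelial cells, was also lower in every *Tet2*-/- mouse than in any *Tet2*+/+ mouse. It had 170.4, 310 and 193 CPM in mice 19, 23 and 24, and 90.03, 32.1 and 132 CPM in mice 5, 7 and 8. The gap between the genotypes was small beside the spread within them, since mouse 8 lay closer to mouse 19 than to mouse 7. The means were 224 ± 74.9 and 84.6 ± 49.9 CPM (SD, n = 3 each), a log2 fold change of -1.41 (SE 0.50, 95% interval -2.58 to -0.23). The p of edgeR was 0.0251 and its adjusted p was 0.582, and DESeq2 did not call it either (adjusted p = 0.167). Without mouse 23 or without mouse 5 the unadjusted p of *Cd34* rose to 0.0745 and 0.0556.

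*Cd34* is read from a single start as a long and a short form that differ at the cytoplasmic end of the protein. The long form, Cd34-201, encodes 382 codons and held 35.1%, 47.1% and 48.8% of the reads in *Tet2*+/+ mice and 39.9%, 61.4% and 34.7% in *Tet2*-/- mice. The short form, Cd34-202, encodes 325 codons and held 57.3%, 45.5% and 44.0% against 52.9%, 26.4% and 56.9%. Both forms were thus present in every mouse, and the balance of the forms differed most in mouse 7, which had the lowest *Cd34* level. The shares of Cd34-202 overlapped between the genotypes (48.9% ± 7.25 and 45.4% ± 16.6, SD, n = 3 each, p = 0.8 in a two-sided exact permutation test).

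*Prom1* (ENSMUSG00000029086, chr5:43993620-44102032, - strand), which encodes a pentaspan protein of membrane protrusions, varied more between mice of one genotype than between the genotypes. It had 82.4, 9.42 and 32.5 CPM in mice 19, 23 and 24 and 72.8, 70.9 and 37.8 CPM in mice 5, 7 and 8. The *Tet2*-/- mice all lay within the range of the *Tet2*+/+ mice, whose highest and lowest values differed 8.75-fold. The log2 fold change was 0.55 (SE 0.69, 95% interval -1.07 to 2.16, adjusted p = 0.873 from edgeR). Without mouse 19 it was 1.53, with no overlap and an unadjusted p of 0.0390, and without mouse 23 it was 0.066, so that the size of the difference rested on these 2 mice. *Prom1* used both of its starts. The downstream start held 50.6%, 58.1% and 45.3% of the reads in *Tet2*+/+ mice and 35.4%, 45.8% and 53.8% in *Tet2*-/- mice, and the upstream start held 8.04%, 6.57% and 12.6% against 23.5%, 12.9% and 6.06%. The remaining reads lay on transcripts that begin elsewhere, among them the fragments Prom1-211 and Prom1-213 with 14.8% and 11.3% of the reads in the mean of the 6 mice. The leading full-length transcript Prom1-207 (827 codons, downstream start) had 41.9% and Prom1-203 (858 codons, upstream start) had 11.6%. The antisense gene *Gm16401* overlaps 5.91% of the exon bases of *Prom1*, and since the library kit does not mark the strand, reads there cannot be assigned to either gene.

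*Cd48* (ENSMUSG00000015355, chr1:171682009-171705258, + strand), the GPI-anchored SLAM family protein of committed progenitors and most blood cells, had 81.5, 95.8 and 47.5 CPM in mice 19, 23 and 24. In mice 5, 7 and 8 it had 50.6, 23.5 and 89.3 CPM. The genotypes overlapped, with mouse 8 among the high *Tet2*+/+ mice and mouse 24 below both mouse 5 and mouse 8. The log2 fold change was -0.46 (SE 0.48, 95% interval -1.59 to 0.67, adjusted p = 0.848 from edgeR). Without mouse 8 it was -1.01 with an unadjusted p of 0.0492 and an adjusted p of 0.540, and without mouse 7 it was -0.10. Nearly all reads of *Cd48* came from 1 transcript, Cd48-202, with 97.0% to 100% in each mouse.

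*Erg* (ENSMUSG00000040732, chr16:95359169-95586593, - strand) was the only one of the 3 factor genes with more than a few reads. It had 74.1, 48.9 and 68.9 CPM in mice 19, 23 and 24 and 77.1, 103 and 26.8 CPM in mice 5, 7 and 8. The *Tet2*-/- mice held both the highest and the lowest value. The log2 fold change was 0.11 (SE 0.45, 95% interval -0.96 to 1.17, adjusted p = 0.974 from edgeR), and it was -0.09 with scaling by library size alone. Transcripts from the start shown above held 91.9% to 96.2% of the *Erg* reads in every mouse, and the more upstream starts held at most 1.39% and 3.44% in any mouse. Of these transcripts, Erg-207 (456 codons) held 63.4% ± 1.79 of the reads in *Tet2*+/+ and 60.5% ± 0.742 in *Tet2*-/- blasts (SD, n = 3 each), and Erg-203 (479 codons) 22.7% in the mean of the 6 mice. The share of Erg-207 did not overlap between the genotypes, though it differed by only -2.90 points (two-sided p = 0.1 in an exact permutation test).

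The markers of the most immature stem cells were represented by a handful of reads. *Slamf1* (ENSMUSG00000015316) had 17, 8 and 3 estimated reads in the *Tet2*+/+ mice 19, 23 and 24. In the *Tet2*-/- mice 5, 7 and 8 it had 9, 4 and 2 reads. *Procr* (ENSMUSG00000027611), the receptor of protein C, had 7, 2 and 3 against 3, 3 and 4 reads. *Esam* (ENSMUSG00000001946), an adhesion molecule of stem and endothelial cells, had 5, 2 and 0 against 5, 3 and 3 reads. For *Slamf1*, *Procr* and *Esam* the genotypes overlapped, and none of these genes reached 20 reads in any mouse. Over all 6 libraries, with 115980539 reads, these counts amount to 0.371 RPM (reads per 1000000) for *Slamf1* (exact Poisson 95% interval 0.268 to 0.499), 0.190 for *Procr* (0.119 to 0.287) and 0.155 for *Esam* (0.0920 to 0.245). Such intervals cover counting error only. The 0 of *Esam* in mouse 24 allows up to 3 reads, or 0.230 RPM.

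The factor genes *Hlf* (ENSMUSG00000003949) and *Mecom* (ENSMUSG00000027684) were also near silent, with *Mecom* the lowest of the 10 genes in reads. *Hlf* had 2, 2 and 11 reads in *Tet2*+/+ mice and 4, 5 and 0 in *Tet2*-/- mice, in all 0.207 RPM (0.133 to 0.308). The 11 reads of mouse 24 set it apart from the other 5 mice, of which mouse 8 had 0, which allows up to 3 reads or 0.162 RPM. *Mecom* had 2, 1 and 2 against 1, 2 and 1 reads, in all 0.0776 RPM (0.0355 to 0.147), and no fold change is given for it since no mouse had more than 3 reads. The fitted log2 fold changes of the other near silent genes were -1.31 (SE 0.73) for *Slamf1*, -0.57 (SE 0.73) for *Procr*, 0.28 (SE 0.95) for *Esam* and -1.14 (SE 1.19) for *Hlf*, with adjusted p between 0.690 and 0.966 from edgeR. The 95% interval of each of these 4 changes included 0, and without mouse 19 the change of *Slamf1* was -0.55. With length-scaled counts that of *Hlf* was -0.20 in edgeR. For comparison per length, the *Cd48* gene was at 14.5 to 66.2 TPM and the *Slamf1* gene at 0.0214 to 0.188 TPM. In every mouse the SLAM gene of committed cells was thus well above that of stem cells.

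As a list, 0 of the 10 genes passed an adjusted p of 0.05 with edgeR, where 0.0451% of all genes tested did, and 1, *Adgrg1*, passed with DESeq2, where 1.74% did. At an unadjusted p under 0.05 with edgeR, 2 of 10 were lower (*Adgrg1* and *Cd34*), beside 5.12% of all genes, and 0 were higher. In either direction 8.11% of all genes passed this threshold. The same 2 genes were lower without overlap between the genotypes, beside 7.94% of all genes, and 0 were higher without overlap, beside 6.41%. Both are well expressed surface genes, and of the 3 factor genes none passed or separated the genotypes. The factor genes *Hlf* and *Mecom* were near silent, however, as were the surface genes *Slamf1*, *Procr* and *Esam*. The median log2 fold change was -0.57 over the 9 genes with a fold change and 0.00 over all genes tested. This -0.57 is the value of the near silent *Procr* (SE 0.73). The well expressed genes were at -1.80 (*Adgrg1*), -1.41 (*Cd34*), -0.46 (*Cd48*), 0.11 (*Erg*) and 0.55 (*Prom1*). Scaling by library size only moved the median of all genes to -0.17.

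**Figure D3:**
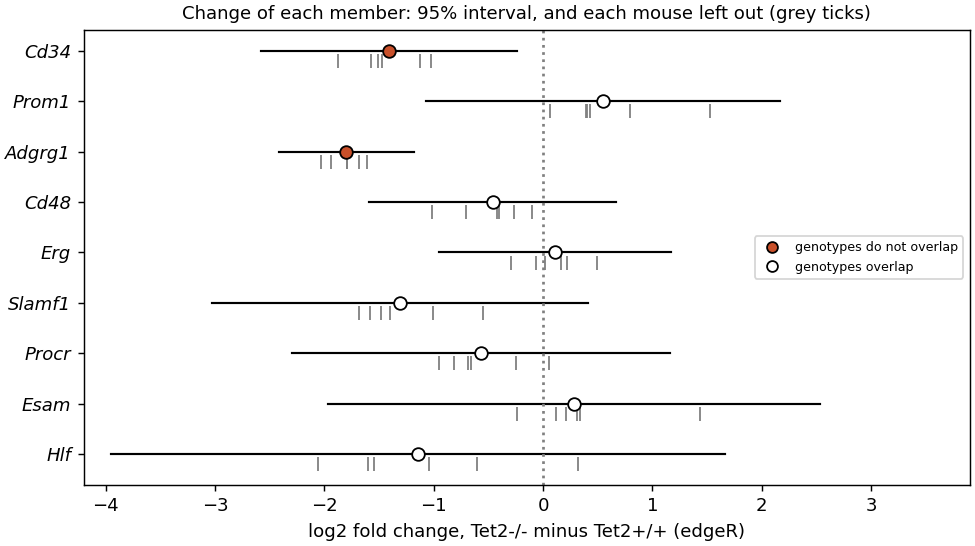
The log2 fold change (Tet2-/- minus Tet2+/+) of 9 of the 10 genes from edgeR with its 95% interval, filled where the genotypes did not overlap, and grey ticks for the fold change with each mouse left out. The interval excluded 0 for Cd34 (-2.58 to -0.23) and Adgrg1 (-2.42 to -1.18).

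The levels of the 5 expressed genes were set beside those of the cell types that the gate lets through, because mice differed in them. The 9 genes of mature neutrophils summed to 31238, 5747 and 20755 CPM in mice 19, 23 and 24 and to 29575, 67148 and 12852 CPM in mice 5, 7 and 8, with *Ngp*, a granule protein, the most abundant. Within each genotype, *Cd34* ran in the opposite order to this sum, being highest in mice 23 and 8 and lowest in mice 19 and 7. *Erg* ran in the same order as the sum within each genotype, being lowest in mice 23 and 8 and highest in mice 19 and 7. *Cd48* was also highest in mice 23 and 8. The neutrophil sums overlapped between the genotypes, as did those of the 8 monocyte and macrophage genes (1562 to 2784 CPM in *Tet2*+/+, 2416 to 4624 CPM in *Tet2*-/-, *Ly6c2* the most abundant), which were highest in mice 23 and 8. The log2 fold changes of all 9 neutrophil genes were above 0, with a median of 0.94. None had an unadjusted p under 0.05, beside 8.11% of all genes in either direction. Of the 8 monocyte and macrophage genes 7 were above 0, with a median of 0.68. Of these 8, 1, *Ly6c2*, was higher at an unadjusted p under 0.05 (0.89, SE 0.27) and without overlap, beside 3.0% and 6.41% of all genes. These medians lay on the other side of 0 from that of the members with a fold change, which is the value of the near silent *Procr*. In mice 19 and 5 the neutrophil sums were close (31238 and 29575 CPM), and *Adgrg1* was at 214 and 67.8 CPM and *Cd34* at 170.4 and 90.03 CPM in these mice. The part of neutrophils and monocytes in these levels was not tested.

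The summed level of mast cell and basophil genes separated the genotypes, as *Adgrg1* did. Of 8 listed genes 4 were tested, and 2 of these, *Cpa3* and *Cd200r3*, were lower without overlap, beside 7.94% of all genes. *Mcpt8* and *Ms4a2* overlapped, with log2 fold changes of -0.99 and 0.48. The 4 genes summed to 293, 372 and 360.2 CPM in *Tet2*+/+ and 102, 57.9 and 28.1 CPM in *Tet2*-/- blasts, without overlap. *Cpa3*, a protease of these cells and of their progenitors, took most of this, with a log2 fold change of -2.66 (SE 0.55, adjusted p = 0.284 from edgeR), whereas the defining genes *Fcer1a*, *Mcpt4*, *Tpsab1* and *Prss34* had at most 3 reads in any mouse. The part of these cells in the level of *Adgrg1* was not tested. Endothelial cells also carry CD34, ESAM and PROCR, but lack CD45 and are thus outside the sorted CD45.2+ gate. Of 11 endothelial genes 8 were tested, of which *Pecam1*, *Egfl7*, *Vwf*, *Plvap* and *Tie1* had a mean of at least 1 CPM. Their sum, 106 to 231 CPM in *Tet2*+/+ and 67.0 to 149 CPM in *Tet2*-/- blasts, overlapped between the genotypes and was mostly *Pecam1*, which blood cells share. *Plvap* had 3.11, 1.82 and 0.422 CPM against 0.475, 0.321 and 0.760 CPM, with overlap (unadjusted p = 0.0486 from edgeR). *Cdh5* was at 4 to 11 reads in each mouse, *Kdr* at 24 reads in mouse 7 and at most 2 in each of the others, and *Emcn*, *Stab2* and *Cldn5* were too low to be tested. The part of endothelial cells in the level of *Cd34* was not tested. The megakaryocyte sum was 25.1 to 45.8 CPM in *Tet2*+/+ and 9.28 to 26.2 CPM in *Tet2*-/- blasts, mostly *Itga2b*, and the erythroid sum was 145 CPM in mouse 19 (mostly *Hbb-bt*) and at most 15.2 CPM in the others. B cell genes summed to 22.8 to 83.0 CPM, led by *Cd79b*, and T and NK cell genes to 58.3 to 130.1 CPM, led by *Nkg7*. The 11 myeloid genes taken as markers of blasts summed to 9446 to 11719 CPM in *Tet2*+/+ and 10195 to 13497 CPM in *Tet2*-/- blasts. *Mpo* was the most abundant at 2662 to 4527 CPM. This list shares *Ly6g* with the neutrophil list and *Ly6c2* with the neutrophil-free monocyte and macrophage list.

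**Figure D4:**
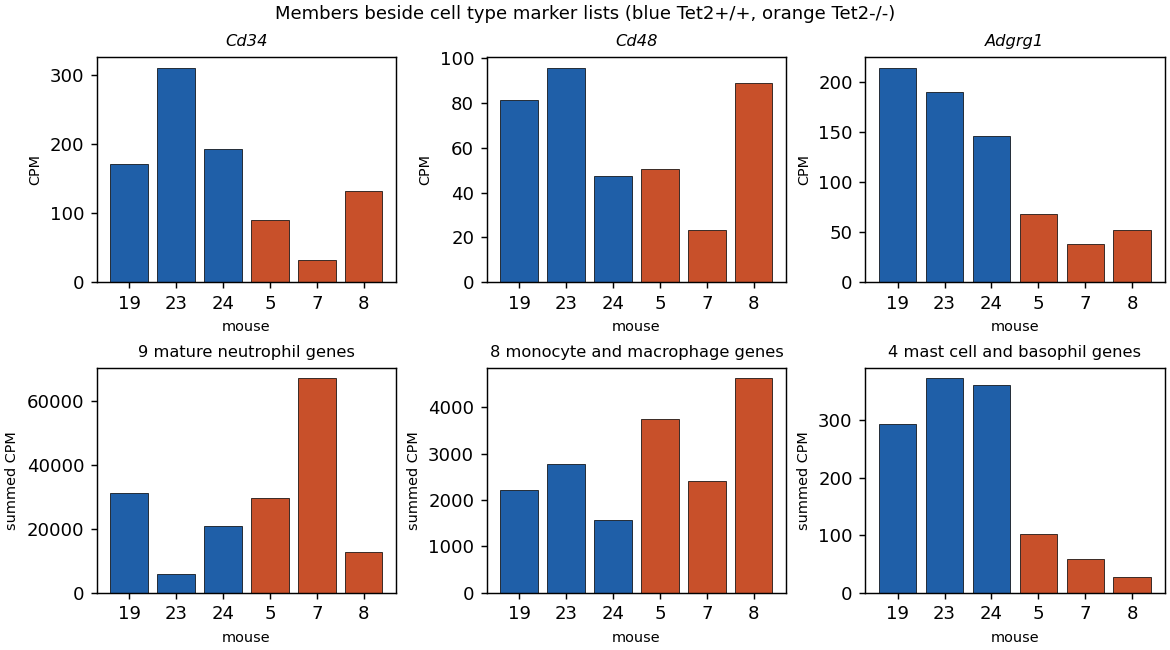
Cd34, Cd48 and Adgrg1 (CPM, upper panels) beside the summed CPM of marker genes of mature neutrophils, of monocytes and macrophages and of mast cells and basophils (lower panels), 1 bar per mouse, blue for Tet2+/+ and orange for Tet2-/-. Mouse 7 had the lowest Cd34 (32.1 CPM) and Cd48 (23.5 CPM) and the highest neutrophil sum (67148 CPM), and the mast cell and basophil sum was lower in each Tet2-/- mouse (at most 102 CPM) than in any Tet2+/+ mouse.

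Relatives and partners of the 10 genes were examined next. Of 40 such genes, 38 were tested, and at an unadjusted p under 0.05 from edgeR 5 were lower (13.2%, beside 5.12% of all genes) and 3 higher (7.89%, beside 3.0% of all genes), none with an adjusted p under 0.05. DESeq2 on the same counts called 2, *Adgrl4* and *Adgre5* (adjusted p = 0.00442 and 0.0131), beside 1.74% of all genes. DESeq2 on length-scaled counts still called *Adgrl4* (adjusted p = 2.78e-08) but not *Adgre5* (adjusted p = 0.309).

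*Adgrg1* lies on chromosome 8 between its relatives *Adgrg5*, 31.5 kb before it, and *Adgrg3*, 3.48 kb after it, all on the + strand. *Adgrg5* was low and separated the genotypes as *Adgrg1* did, with 6.64, 8.19 and 5.21 CPM against 3.54, 3.79 and 2.88 CPM and a log2 fold change of -0.97 (SE 0.32, adjusted p = 0.544). *Adgrg3* had 362, 404 and 504 CPM against 379, 428 and 213 CPM, a log2 fold change of -0.31 (SE 0.29), so that the gene nearest to *Adgrg1* overlapped between the genotypes. Of the other adhesion receptors, *Adgrl4*, which is best known from endothelium and was not among the 11 endothelial genes, had 11.8, 23.7 and 21.8 CPM against 2.88, 4.18 and 0.380 CPM (log2 fold change -2.95, SE 0.75). *Adgre5* (CD97) had 278, 282 and 271 CPM against 377, 412 and 426 CPM (0.55, SE 0.16). The unadjusted p was above 0.05 for *Adgrg5* without mouse 23 or 8, and for *Adgre5* with scaling by library size alone (0.37, unadjusted p = 0.0669). Of the 5 adhesion receptors examined beside *Adgrg1*, 2 were thus lower and 1 higher at an unadjusted p under 0.05, beside 5.12% and 3.0% of all genes, and *Adgre1* and *Adgrg3* were neither.

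*Slamf1* and *Cd48* lie in the SLAM cluster of chromosome 1 with *Cd244a*, *Ly9*, *Slamf7*, *Cd84* and *Slamf6*. Here *Cd84* was the most abundant at 187 to 369 CPM and did not separate the genotypes (log2 fold change 0.16, SE 0.30). *Ly9* and *Cd244a*, like *Cd48*, were lowest in mouse 7 (7.33 and 13.6 CPM, against at least 19.5 and 30.9 CPM in the other mice). Only *Slamf8*, which lies apart from the cluster, passed an unadjusted p of 0.05, with 0.778, 0.482 and 0.141 CPM against 1.14, 2.64 and 2.50 CPM (log2 fold change 2.12, SE 0.67). That is 1 of 10 SLAM relatives and partners tested, beside 8.11% of all genes in either direction. Among PAR bZIP relatives of *Hlf*, *Tef* had the highest mean with 36.0, 53.5 and 37.0 CPM against 20.7, 18.6 and 52.2 CPM, *Dbp* was lower (log2 fold change -0.95, SE 0.39) and *Nfil3*, which competes for the same DNA sites, was higher (0.98, SE 0.30) at an unadjusted p under 0.05. Both *Dbp* and *Nfil3* separated the genotypes without overlap, as did 7.94% of all genes that were lower and 6.41% that were higher. The unadjusted p was above 0.05 without mouse 23, 24 or 5 for each, and without mouse 8 or with length-scaled counts in edgeR for *Dbp*. *Prdm16*, the closest relative of *Mecom*, had 141 reads in mouse 19 and 1 to 3 reads in each of the other mice, and its unadjusted p of 0.0251 rested on mouse 19. Of 8 ETS genes related to *Erg*, 0 passed an unadjusted p of 0.05, beside 8.11% of all genes in either direction, and 2, *Etv6* and *Elf1*, were lower without overlap (log2 fold changes -0.27 and -0.37), beside 7.94% of all genes. *Spi1*, the myeloid ETS factor PU.1, was the most abundant at 291 to 511 CPM.

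Among the genes linked to the protein C receptor *Procr*, the thrombin receptor *F2r* was lower (13.7, 4.12 and 4.93 CPM against 2.31, 3.54 and 1.25 CPM, log2 fold change -1.68, SE 0.60, unadjusted p = 0.0266). Without mouse 19 its log2 fold change was -0.94 (unadjusted p = 0.124), and its unadjusted p was also above 0.05 without mouse 5 or 8. *Thbd*, or thrombomodulin, the cofactor of protein C activation, overlapped between the genotypes (log2 fold change -0.20, SE 0.50). *Cd164*, a sialomucin like CD34, was at 210 to 347 CPM with a log2 fold change of 0.03 (SE 0.24), and the CD34 family gene *Podxl* had at most 6 reads in any mouse. Of the junction proteins related to ESAM, *F11r* had the highest mean with 0.900 to 9.24 CPM. *Prom2* had at most 1 read in any mouse and was not tested.

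A wider list of 30 genes of the stem and progenitor program had 23 tested genes. With edgeR, 6 of these (26.1%) were lower at an unadjusted p under 0.05, beside 5.12% of all genes, 0 were higher, and 0 passed an adjusted p of 0.05. DESeq2 on the same counts had 6 lower and 2 higher at this threshold, the latter *Flt3* and *Ly6a* (unadjusted p = 0.0221 and 0.0349), which edgeR without a filter on low counts also placed under 0.05. Its lower genes held *Eng* in place of *Pdzk1ip1*. The 7 genes that were not tested, *Tek*, *Robo4*, *Fgd5*, *Myct1*, *Hoxb5*, *Nkx2-3* and *Tcf15*, several of them markers of the most immature stem cells, had at most 3 reads in any mouse. The lower genes with edgeR were *Gata2* (23.3, 27.9 and 27.3 CPM against 8.60, 4.44 and 5.21 CPM, log2 fold change -2.10, SE 0.30, adjusted p = 0.117 from edgeR), *Gfi1b* (-1.60, SE 0.55), *Msi2* (-1.28, SE 0.30), *Bmi1* (-0.65, SE 0.26), *Runx1* (-0.40, SE 0.16) and *Pdzk1ip1* (5, 2 and 3 reads against 2, 0 and 0). *Gata2*, *Gfi1b* and *Runx1* encode transcription factors, *Msi2* an RNA-binding protein and *Bmi1* a Polycomb protein. Of the 23 tested genes 7 were lower without overlap (these 6 and *Cd27*), beside 7.94% of all genes. *Gata2* and *Msi2* had an unadjusted p under 0.05 with any 1 mouse left out. With length-scaled counts in edgeR *Gata2* was at -2.79, and without a filter on low counts its adjusted p was 0.0336. Without mouse 19 *Gfi1b* was at -0.93 (unadjusted p = 0.0903) and *Runx1* at -0.27 (unadjusted p = 0.163). The unadjusted p was also above 0.05 for *Gfi1b* without mouse 7 or 8, for *Runx1* without mouse 23, 5 or 8, and for *Bmi1* without mouse 23, 24 or 7. With length-scaled counts in edgeR it was above 0.05 for *Runx1* (-0.24, unadjusted p = 0.236), *Gfi1b* (-2.79, unadjusted p = 0.129) and *Bmi1* (-0.65, unadjusted p = 0.0654), and without a filter on low counts for *Runx1* (unadjusted p = 0.0719). DESeq2 on the same counts called 2 of the 23, *Gata2* (adjusted p = 5.4e-08) and *Msi2* (adjusted p = 0.00796), beside 1.74% of all genes. DESeq2 on length-scaled counts still called *Gata2* (adjusted p = 5.14e-07) but not *Msi2* (adjusted p = 0.284).

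Surface receptors and markers of progenitor cells differed among themselves. *Kit*, the receptor of stem cell factor, had 98.1, 90.3 and 141 CPM against 65.6, 108 and 41.7 CPM (log2 fold change -0.61, SE 0.36, from -1.03 without mouse 7 to -0.34 without mouse 8). *Flt3*, the receptor of FLT3 ligand, had 13.6, 7.12 and 4.15 CPM against 60.4, 7.14 and 16.1 CPM (1.75, SE 0.80), with mouse 5 far above the others, and 0.48 without mouse 5. *Ly6a* (SCA-1) had 5.98, 6.32 and 3.59 CPM against 18.1, 10.6 and 5.10 CPM (1.09, SE 0.49, and 0.57 without mouse 5). *Kit*, *Flt3* and *Ly6a* overlapped between the genotypes, with adjusted p between 0.634 and 0.709 from edgeR. *Cd27*, a receptor of the TNF receptor family, was lower without overlap (6.52, 3.11 and 3.10 CPM against 2.18, 3.09 and 1.74 CPM, log2 fold change -0.86, SE 0.45, unadjusted p = 0.0968). *Eng*, or endoglin, had 14.7, 19.9 and 5.77 CPM against 2.53, 6.62 and 7.65 CPM, with overlap (-1.27, SE 0.57, unadjusted p = 0.0592). *Meis1*, the HOX partner of stem cells, had 23, 5 and 5 reads against 9, 0 and 4.

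**Figure D5:**
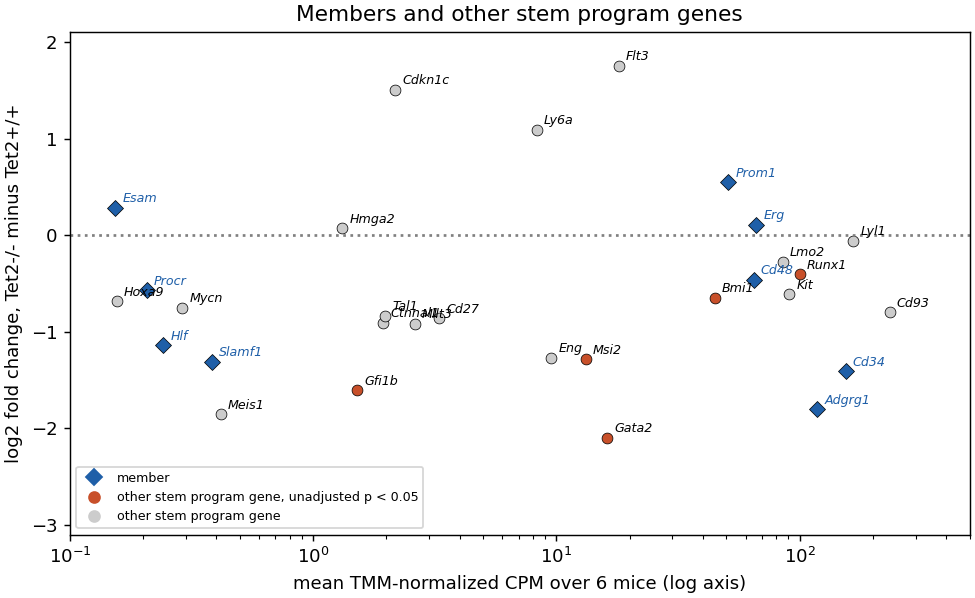
Log2 fold change (Tet2-/- minus Tet2+/+, edgeR) against the mean CPM of the 6 mice (log axis) for 9 of the 10 genes (blue diamonds) and the other stem program genes with a fold change (circles, orange at an unadjusted p under 0.05). Adgrg1 (-1.80) and Gata2 (-2.10) had the lowest fold changes among those with at least 1 CPM, and the near silent genes lie on the left.

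The libraries held 13036643 to 16900584 estimated reads in *Tet2*+/+ and 17953277 to 32855343 in *Tet2*-/- mice, so that *Tet2*-/- libraries were the deeper ones. The targeted gene *Tet2* had a whole-gene log2 fold change of 0.19 (SE 0.19), which does not test the deletion because reads outside the deleted exons still count. *Cebpa* had one of -0.80 (SE 0.35), with neither past the threshold.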

How the data were processed

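RNA-seq of AML blasts from 6 mice was used. Per the authors' methods, TruSeq RNA v2 libraries, which do not mark the strand, were sequenced on a NextSeq 500 and quantified by Salmon (0.12.0 per the submitters' processing notes) on Ensembl transcripts of GRCm38. The authors deposited an estimated count of reads per transcript, without normalization between mice. They also deposited TPM values, scaled by effective transcript length to one total per mouse, and the transcript lengths, which served only for the length-scaled counts.

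For each gene of GENCODE M21 the estimated counts were added up and rounded (13036643 to 32855343 reads per mouse), and the 112 transcripts outside it, with at most 0.0416% of reads, were left out. The genotypes were compared by the quasi-likelihood test of edgeR 4.0.16 (R 4.3.3) with TMM factors and no covariates. Adjusted p are Benjamini-Hochberg values over 22170 genes, called at 0.05. The biological coefficient of variation was 43.6%, and 3 mice per genotype limit the precision. Shares and single genes were also compared by exact two-sided permutation tests. Where all mice of a genotype had at most 3 reads, no fold change is given.

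Alternatives were DESeq2 1.42.0, length-scaled counts, library size only, RLE factors, other filters on low counts, a robust fit and leaving out each mouse. Transcripts were assigned to a RefSeq start (GRCm38.p6) within 200 bases. By BLAST+ 2.17.0, none of the 10 genes had another gene with 95% identity over 50% of a transcript. Tests were tried on simulated data. Python 3.11.15, pandas 2.3.3 and matplotlib 3.10.9 were used.

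The members and all gene lists were chosen with earlier results of these data known. Named are all 10 members, relatives and stem program genes with an unadjusted p under 0.05, *Kit*, *Flt3*, *Meis1*, *Gata2* and *Ly6a*, the most abundant relative of each family and marker of each cell type, and transcripts with at least 10% of a member's reads. *Cpa3*, *Cdh5*, *Kdr* and other genes named beyond this rule were added after their values were seen.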

Additional observations from a re-analysis of the deposited data

How the results depend on the processing

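*Adgrg1* passed an adjusted p of 0.05 in 3 of 14 alternatives, with a log2 fold change of -1.80 by DESeq2 on the same counts, -1.61 by DESeq2 on length-scaled counts and -1.79 without a filter on low counts (edgeR, adjusted p = 0.0260). These settings each brought the number of called members from 0 to 1. No other member passed in any alternative. *Esam* turned to -3.88 (edgeR) and -3.93 (DESeq2) with length-scaled counts, which follow TPM, where 1 estimated read on a fragment of 216 bases weighs heavily in mouse 23. Scaling by library size only turned *Erg* to -0.094, *Cd84* to -0.042 and *Cd164* to -0.15, beside the shift of all genes to -0.17. The difference in the share of Adgrg1-202 was -4.72 points by TPM. With 1 mouse left out, log2 fold changes changed sign within these ranges: *Procr* -0.95 to 0.055, *Esam* -0.24 to 1.44, *Erg* -0.29 to 0.49, *Hlf* -2.06 to 0.32, *Cd84* -0.17 to 0.35, *Cd164* -0.17 to 0.20 and *Thbd* -0.57 to 0.41. Also with 1 mouse left out, members at an unadjusted p under 0.05 numbered 1 (without mouse 23 or 5) to 3, members without overlap 2 to 4 (4 without mouse 19), relatives at an unadjusted p under 0.05 numbered 4 (without mouse 5; 5 without mouse 23) to 8, and the median of the members lay between -0.95 (without mouse 23) and -0.40. Over all alternatives these relatives numbered 4 to 10, and stem program genes at that threshold 4 to 9. Of all genes tested, 768 to 1565 were lower and 250 to 1016 higher at that threshold over the alternatives. The main edgeR test had 1135 and 664. Genes without overlap are also more common with fewer mice. Without mouse 19, 3263 of 21429 genes were lower and 2724 higher without overlap, against 1761 and 1422 of 22170 with all mice. The causes of the other shifts were not tested. No paired analysis was possible because the genotypes share no mouse numbers. The near silent genes rest on 0 to 17 reads per mouse, so that a few reads more or less move their fold changes.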
